A study of Homo sapiens with 12 samples.

Results

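The 52 genes described here were at least 2-fold higher in NFKB1 S80A cells than in WT cells and did not overlap between the genotypes. They were selected on measured values: each count was divided by its library total and scaled to CPM, the usual unit of relative abundance per library, and a gene was taken when its mean over the 6 S80A samples was at least 1 CPM and at least 2 times its mean over the 6 WT samples, with every S80A sample above every WT sample. Of 33093 genes in the table, 13034 had a mean of at least 1 CPM in S80A cells, and 56 met the rule. RPRM, ATP2B3, NKAIN2 and genes whose symbols start with HOX or PCDH were then set aside, which removed 4 genes. Because the difference between the genotypes chose the members, it is given below as a description with no test, and the tests concern the response to TNFα.

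The cells were HEK293T, a human embryonic kidney line that carries the SV40 large T antigen. The WT cells had wild type NFKB1, and the NFKB1 S80A cells carried a CRISPR/Cas9 knock-in that changes serine 80 of the NF-κB subunit encoded by NFKB1 to alanine. Each genotype was left untreated or was given 10 ng/ml TNFα for 3 h, with 3 samples in each of the 4 groups, and poly(A) RNA was sequenced. Edited lines were isolated as single-cell clones, and the number of clones behind the S80A samples is not given in the sources used here, so the edit and any property of a clone cannot be told apart. Reads counted per gene cannot show the edit itself. In a bulk culture, a change in the share of cells that express a gene and a change in RNA per cell also cannot be told apart.

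NF-κB proteins are transcription factors that sit in the cytoplasm of resting cells bound to IκB proteins. TNFα binding to its receptor leads to the loss of IκB, and dimers such as p50 with p65 enter the nucleus and bind κB sites near target genes. NFKB1 encodes p105 and its product p50, which has a DNA-binding domain but no transactivation domain.

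Library totals ran from 15624878 to 20889577 counts. NFKB1 had a mean of 54.5 CPM in untreated WT cells and 52.7 CPM in untreated S80A cells. Of 9 markers of HEK293T cells, 6 were at 1 CPM or more in every sample. The neurofilament gene NEFM averaged 99.0 CPM in untreated WT cells and 0.242 CPM in untreated S80A cells. PTPRC and CD3E, which define blood cells, were at 0 in all samples, and the 3 endothelial and 3 hepatocyte markers were under 1 CPM in all of them. The summed level of 5 fibroblast markers ran from 14.2 to 17.1 CPM in the WT samples and from 7.38 to 9.02 CPM in the S80A samples, most of it COL1A1. The part of these differences in the members' levels was not tested.

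Sequences upstream of 5 members show how unlike their starts are, from a stretch with no CpG to one made mostly of G and C. Each is the 250 bases before a RefSeq transcript start on GRCh38.p14, 5′ to 3′ on the gene's strand. SYK is shown at the third of its listed starts, at chr9:90827170-90827419 on the plus strand. That start was the only one listed for a member that matched the letters GGG, any 2 bases, TTTCC. The capitals mark the 2 matches, with GGAAAAGCCC read on the other strand. Both have C right after GGG, where the κB consensus given in the study has a purine, so neither meets that consensus.
SYK: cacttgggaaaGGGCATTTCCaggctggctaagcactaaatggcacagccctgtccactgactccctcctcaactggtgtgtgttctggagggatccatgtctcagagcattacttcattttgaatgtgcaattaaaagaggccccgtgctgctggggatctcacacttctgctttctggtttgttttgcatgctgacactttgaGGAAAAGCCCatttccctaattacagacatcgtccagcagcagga
LOC101928230 and PPARGC1A are shown because they were the members called for TNFα. LOC101928230 lies at chr16:79600637-79600886 (plus strand), with capitals at TTTATA, the letters TATAAA on the other strand. PPARGC1A lies at chr4:24472906-24473155 (minus strand), with its 33 CpG in capitals.
LOC101928230: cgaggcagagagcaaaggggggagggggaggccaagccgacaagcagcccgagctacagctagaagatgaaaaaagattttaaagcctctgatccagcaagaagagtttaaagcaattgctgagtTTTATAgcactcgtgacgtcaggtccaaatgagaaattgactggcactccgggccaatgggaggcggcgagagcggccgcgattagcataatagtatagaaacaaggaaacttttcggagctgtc
PPARGC1A: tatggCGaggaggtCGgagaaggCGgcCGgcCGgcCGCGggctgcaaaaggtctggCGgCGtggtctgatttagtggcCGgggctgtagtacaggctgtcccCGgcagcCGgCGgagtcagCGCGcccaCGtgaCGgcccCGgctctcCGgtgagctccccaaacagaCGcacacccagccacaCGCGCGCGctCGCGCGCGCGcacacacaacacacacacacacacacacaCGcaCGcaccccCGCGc
HCN2, at chr19:589631-589880 (plus strand), and ANXA1, at chr9:73151615-73151864 (plus strand), were chosen after their values were seen, for their base composition. The 39 CpG of HCN2 are in capitals. ANXA1 has 0 CpG, and its capitals mark a TATA box.
HCN2: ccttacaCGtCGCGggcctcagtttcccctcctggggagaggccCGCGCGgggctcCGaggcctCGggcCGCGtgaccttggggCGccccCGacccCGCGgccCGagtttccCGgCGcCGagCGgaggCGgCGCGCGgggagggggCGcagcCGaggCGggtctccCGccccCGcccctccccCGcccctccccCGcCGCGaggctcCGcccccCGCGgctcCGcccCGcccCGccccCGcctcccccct
ANXA1: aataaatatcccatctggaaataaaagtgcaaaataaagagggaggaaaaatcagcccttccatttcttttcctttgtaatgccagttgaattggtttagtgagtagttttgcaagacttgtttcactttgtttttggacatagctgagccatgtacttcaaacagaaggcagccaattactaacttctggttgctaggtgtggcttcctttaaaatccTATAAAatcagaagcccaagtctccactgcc
The G and C share was 84.0% in HCN2, 70.8% in PPARGC1A, 50.4% in LOC101928230, 49.2% in SYK and 38.4% in ANXA1.

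The S80A over WT ratios of mean CPM ran from 2.02 to 10.57 with a median of 2.41. Of the 52 members, 11 were at 3-fold or more and 32 were under 2.5-fold. Most members were low: the median of their S80A means was 3.56 CPM, against 33.4 CPM for the other 12982 genes at 1 CPM or more, and 20 members had a WT mean under 1 CPM. Only 9 reached a mean of 10 CPM in S80A cells. In 7 members the lowest S80A sample was at least 2 times the highest WT sample.

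**Figure D1:**
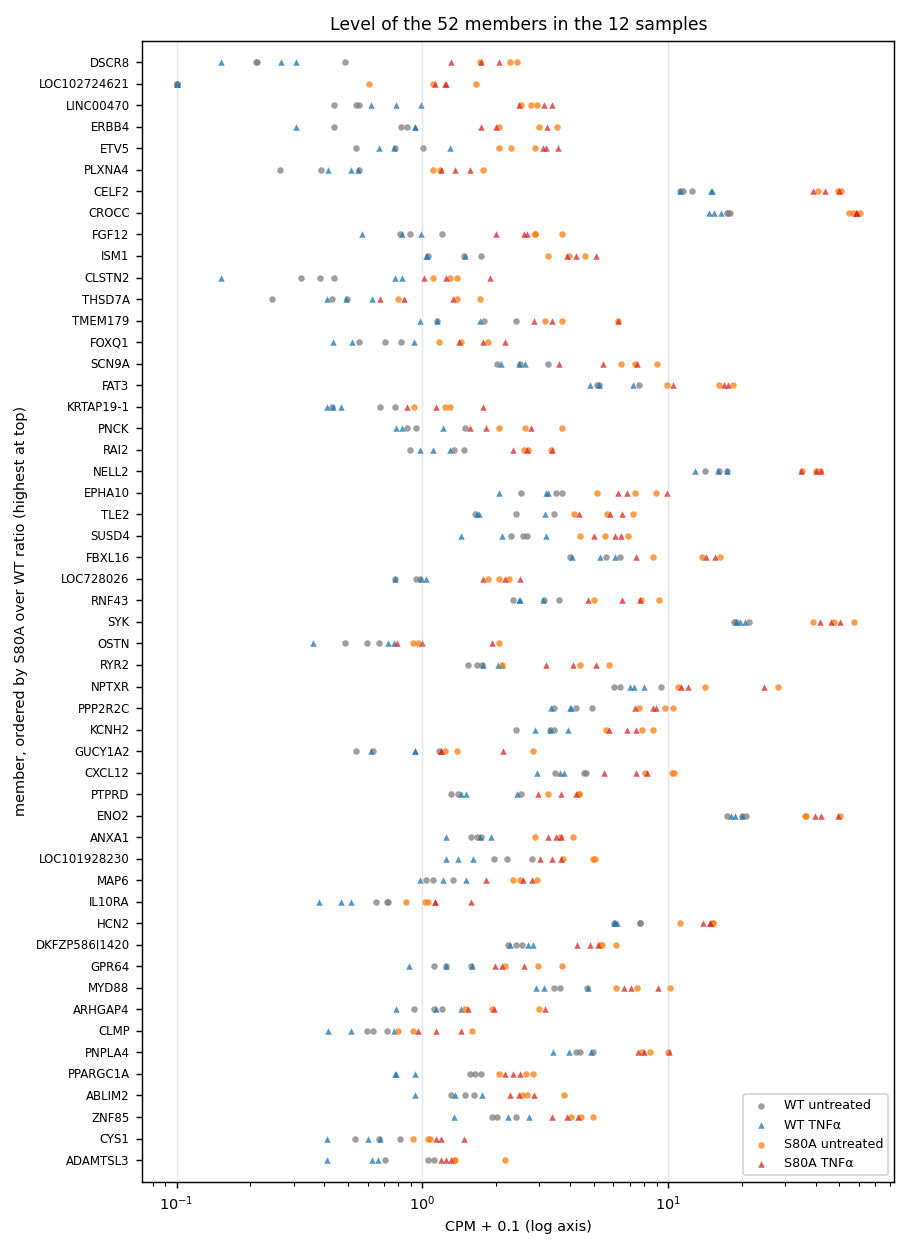
Level of each of the 52 members (CPM + 0.1, log axis) in each of the 12 samples, with 1 point per sample, circles for untreated and triangles for TNFα, members ordered by their S80A over WT ratio. In every member the S80A points lie to the right of the WT points, as the rule requires; CROCC, SYK, CELF2, ENO2 and NELL2 stand apart at the high end of the scale.

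At the threshold, ADAMTSL3 (ratio 2.02) and CYS1 (2.02) were just inside, and SKOR1 (1.996) and TMEM200C (1.98) were just outside. L1CAM and KCNJ4 were at ratios of 2.98 and 2.18 but overlapped between the genotypes, and so were not members.

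The highest ratios belonged to 3 noncoding genes. DSCR8, a long noncoding RNA gene of chromosome 21, read 0.113, 0.384 and 0.110 CPM in untreated WT cells and 0.167, 0.0523 and 0.207 CPM in WT cells with TNFα. In S80A cells it read 2.17, 2.33 and 1.63 CPM untreated and 1.63, 1.22 and 1.95 CPM with TNFα. The lowest S80A sample was 3.16 times the highest WT sample, on 20 counts in all WT samples together and 199 in all S80A samples. LOC102724621, a pseudogene, was at 0 counts in all 6 WT samples and between 0.505 and 1.55 CPM in S80A cells, which is at least 6.65-fold higher when each WT library is set at a floor of 3 counts. The long noncoding RNA gene LINC00470 averaged 0.553 CPM in WT cells and 2.77 CPM ± 0.348 (SD, n = 6) in S80A cells.

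The members with the most reads held a range of functions. CROCC encodes rootletin, the structural protein of the ciliary rootlet. It read 17.3, 17.8 and 17.5 CPM in untreated WT cells and 16.4, 14.6 and 15.3 CPM with TNFα. In S80A cells it read 60.7, 54.5 and 56.6 CPM untreated and 58.6, 58.8 and 58.3 CPM with TNFα. All S80A samples of CROCC were about equal and far above WT, with a ratio of 3.51. Its pseudogene copies CROCCP2 and CROCCP3 share sequence with it and were both at a ratio of 1.06, and how reads were split among the copies is uncertain.

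CELF2, an RNA-binding regulator of splicing, read 11.5, 11.1 and 12.4 CPM in untreated WT cells and 49.3, 40.9 and 50.5 CPM in untreated S80A cells. With TNFα it read 15.01, 14.96 and 11.1 CPM in WT cells and 43.7, 49.9 and 38.9 CPM in S80A cells, for a ratio of 3.59 over all samples. SYK, a cytoplasmic tyrosine kinase known for signalling below immune receptors, read 18.8, 21.4 and 18.5 CPM in untreated WT cells and 57.1, 38.8 and 47.3 CPM in untreated S80A cells. The S80A samples of SYK were spread more widely than the WT samples, and the lowest of them was still well above WT.

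ENO2, the neuronal form of the glycolytic enzyme enolase, had a mean of 19.1 CPM in WT cells and 42.3 CPM ± 6.12 (SD, n = 6) in S80A cells. NELL2, a secreted protein with EGF-like repeats, had means of 15.6 and 39.0 CPM ± 3.24 (SD, n = 6). PPP2R2C, a regulatory subunit of protein phosphatase PP2A, had means of 3.88 and 8.71 CPM ± 1.20 (SD, n = 6). Per kilobase of exon in GENCODE, which allows genes to be compared, the S80A levels were 9.87 CPM for ENO2, 8.999 for SYK, 6.52 for CROCC, 6.09 for NELL2, 4.14 for HCN2 and 4.13 for CELF2. By CPM alone, with no division by length, CROCC came first among them at a mean of 57.9 CPM.

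**Figure D2:**
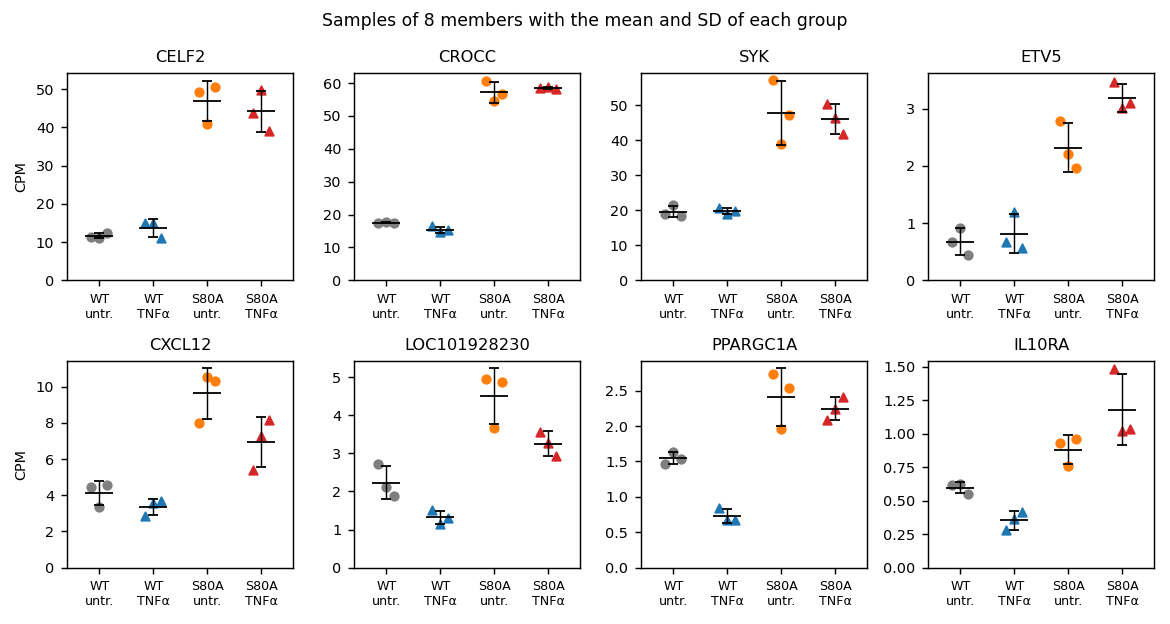
CPM of 8 members in the 3 samples of each group, each panel with its own axis from 0, where the bar and whiskers give the group's mean and SD. CELF2, CROCC, SYK and ETV5 separate by genotype in both treatments, while PPARGC1A in WT cells and LOC101928230 in both genotypes are lower with TNFα.

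Members were counted in lists of genes grouped by role. Over all 13034 genes at 1 CPM or more in S80A cells, 0.399% were members. Of 119 growth factor genes, receptors and binding proteins at 1 CPM or more in S80A cells, 4 (3.36%) were members. ERBB4, a receptor tyrosine kinase for neuregulins, read 0.339, 0.720 and 0.769 CPM in untreated WT cells and 2.89, 1.96 and 3.45 CPM in untreated S80A cells. FGF12, an intracellular member of the fibroblast growth factor family that binds sodium channels, had means of 0.783 CPM in WT and 2.69 CPM in S80A cells. PLXNA4, a semaphorin receptor, and EPHA10, an Eph receptor with no kinase activity, had ratios of 3.65 and 2.49.

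Ion channels gave 3 of 98 (3.06%). SCN9A encodes the sodium channel Nav1.7 of sensory neurons, KCNH2 the potassium channel hERG, and HCN2 a channel opened by hyperpolarisation. HCN2 had a mean of 6.53 CPM in WT cells and 14.1 CPM ± 1.54 (SD, n = 6) in S80A cells. SCN9A had means of 2.39 and 6.47 CPM ± 1.89 (SD, n = 6), and KCNH2 of 3.12 and 6.93 CPM ± 1.20 (SD, n = 6). RYR2, the calcium release channel of heart muscle, was a member by the rule with a ratio of 2.34, and was named after its values were seen.

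NPTXR, the receptor of neuronal pentraxins, was the 1 member among 48 neuronal cytoskeleton and synapse genes. It read 9.31, 6.29 and 5.93 CPM in untreated WT cells and 27.9, 10.9 and 14.1 CPM in untreated S80A cells, with replicate 1 far above the other S80A samples. FOXQ1, a forkhead factor, was 1 of 189 developmental transcription factors and had a ratio of 2.75. Further lists held 1 member each: ADAMTSL3 among 78 matrix genes, ZNF85 among 501 zinc finger genes, GPR64 among 73 G protein-coupled receptors, KRTAP19-1 among 23 keratin and junction genes, and PTPRD among 151 phosphatases and kinases. The list of 647 noncoding RNA genes held 4 members, LOC102724621, LINC00470, LOC728026 and LOC101928230. RefSeq calls the first a pseudogene, and LOC728026 had no RefSeq match. DSCR8, a long noncoding RNA gene in RefSeq, was not in the list, so this count differs from the RefSeq types given below. In all, 18 members were in a list and 34 were in none. The lists are not complete. The kinase genes SYK and PNCK and the phosphatase subunit gene PPP2R2C were outside the list of phosphatases and kinases. A member in no list can therefore still have one of these roles.

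No member was among the 46 genes of the κB pathway and TNFα target list at 1 CPM or more. Of these, 33 had a ratio above 1 and 4 were at 2-fold or more, namely IL8 (4.28), TNF (2.97), CXCL1 (2.27) and CXCL2 (2.27), named after their values were seen. Their samples overlapped between the genotypes across the treatments, so the rule left them out. Of the other lists, 0 of 204 solute carriers, 64 adhesion molecules, 70 drug and lipid enzymes, 28 interferon-stimulated genes, 26 imprinted genes, 18 histone genes and 8 germ line genes were members. Members outside the κB list with known ties to immune signalling were named after their values were seen. CXCL12, a chemokine, had means of 3.74 and 8.29 CPM in WT and S80A cells. MYD88, the adaptor of Toll-like and interleukin-1 receptors, had means of 3.66 and 7.69 CPM, and IL10RA, a chain of the interleukin-10 receptor, of 0.476 and 1.03 CPM.

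ETV5, an ETS transcription factor and well-known target of receptor tyrosine kinase signalling, read 0.677, 0.913 and 0.440 CPM in untreated WT cells and 2.79, 2.21 and 1.96 CPM in untreated S80A cells. With TNFα it read 0.670, 1.20 and 0.570 CPM in WT and 3.47, 3.01 and 3.10 CPM in S80A cells. Within S80A cells all 3 samples with TNFα lay above the 3 untreated samples, but the response was 0.47 ± 0.24 (SE) on the log2 scale and did not pass the test (adjusted p = 0.553 by edgeR's quasi-likelihood test).

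ISM1, a secreted protein called isthmin, had means of 1.21 CPM in WT and 4.07 CPM ± 0.631 (SD, n = 6) in S80A cells, a ratio of 3.36.

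The genotype difference was present in both treatments. The median ratio was 2.44 among untreated samples and 2.45 among samples with TNFα. A ratio of at least 2 was reached by 44 members untreated, by 47 with TNFα and by 39 in both, and the lowest ratio in either was 1.47. These counts use the contrast of the rule and describe the members only.

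The response to TNFα asks whether these genes move with the cytokine. The rule did not use it directly but limited it, because every S80A sample, treated or not, had to lie above every WT sample. A gene induced in WT cells by more than its S80A over WT ratio among untreated samples could not be a member. The lack of strong inductions in WT cells was thus limited by the rule and is given as a description. The rule set no upper limit on induction in S80A cells. A fall in WT cells or a rise in S80A cells with TNFα raised the ratio that the rule used. The fit was made on 14383 genes, all 52 members among them. In WT cells 1 member passed an adjusted p of 0.05, against 0.688% of all genes, and 5 of the 52 were under an unadjusted p of 0.05, against 5.97% of all genes. In S80A cells 0 members passed, against 1.26% of all genes, and 2 were under an unadjusted p of 0.05, against 9.59% of all genes, with 0 called by DESeq2. Averaged over the genotypes 2 members passed, against 2.17% of all genes. No member was called as rising in any of these 3 comparisons. The members' median log2 fold change was -0.08 in WT cells and -0.05 in S80A cells, beside 0.00 over all genes in both. With a median standard error of 0.27 and 0.22 for single members, small responses were not detectable.

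PPARGC1A, a coactivator of nuclear receptors that drives mitochondrial genes, read 1.47, 1.63 and 1.54 CPM in untreated WT cells and 0.837, 0.680 and 0.673 CPM with TNFα. All WT samples with TNFα lay below the untreated ones. It fell by 1.07 ± 0.22 (SE) on the log2 scale (adjusted p = 0.0380, edgeR). Its S80A over WT ratio was 1.56 untreated and 3.07 with TNFα, so it met the rule only through the TNFα samples. The rule thus favoured its fall in WT cells, and neither this call nor its averaged call below is independent of the selection. In S80A cells it read 2.74, 1.96 and 2.54 CPM untreated and 2.08, 2.24 and 2.41 CPM with TNFα, which overlapped (log2 change -0.10 ± 0.18). The call in WT cells was lost with DESeq2 (adjusted p = 0.0980) and when any of the 6 WT samples, S80A untreated replicate 3 or any S80A sample with TNFα was left out (highest adjusted p = 0.219), so that it held in 2 of 12 such fits.

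LOC101928230, a long noncoding RNA gene of chromosome 16, read 2.71, 2.11 and 1.87 CPM in untreated WT cells and 1.51, 1.15 and 1.29 CPM with TNFα. In S80A cells it read 4.96, 3.66 and 4.88 CPM untreated and 3.57, 3.26 and 2.92 CPM with TNFα. Both genotypes were lower with TNFα with no overlap. Averaged over the genotypes LOC101928230 fell by 0.60 ± 0.13 (SE) on the log2 scale (adjusted p = 0.0287, edgeR), and PPARGC1A fell by 0.58 ± 0.14 (adjusted p = 0.0468). ADAMTSL3 was also lower in both genotypes with no overlap. Its averaged fall of 0.64 ± 0.22 did not pass (adjusted p = 0.2245, edgeR). The share of all genes with no overlap was not counted. With single samples left out, PPARGC1A passed on average in 1 of 12 fits (highest adjusted p = 0.144), the exception being the fit without S80A untreated replicate 2. LOC101928230 passed in 4 of 12 (highest adjusted p = 0.1001), and lost the call without replicates 1 or 2 of untreated WT, 2 or 3 of WT with TNFα, 1 or 3 of untreated S80A, or 2 or 3 of S80A with TNFα. Within single genotypes LOC101928230 did not pass, at adjusted p = 0.220 in WT and 0.358 in S80A cells.

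**Figure D3:**
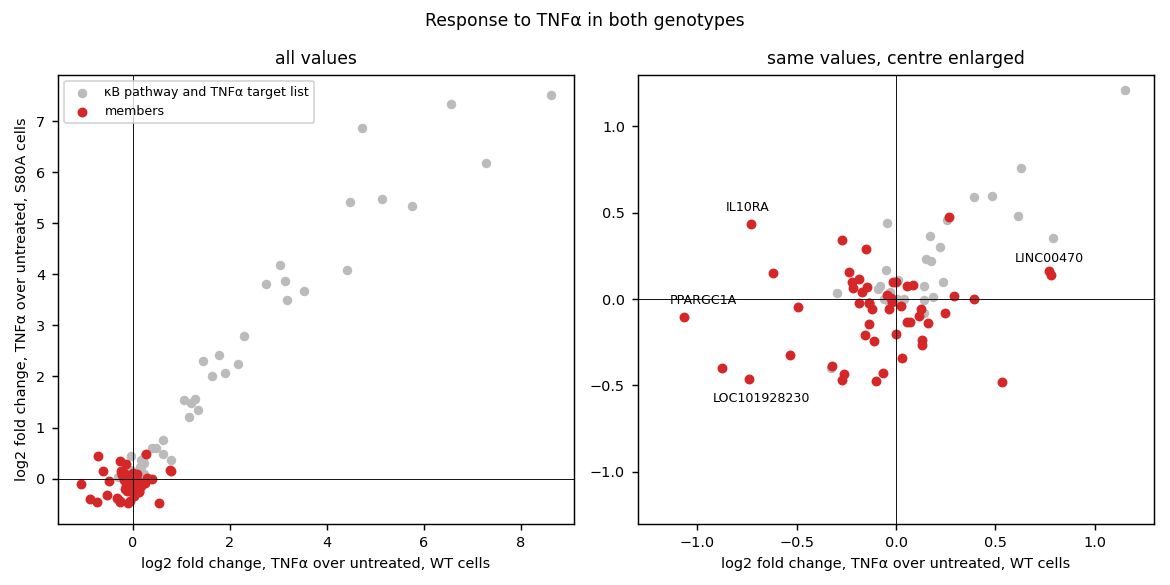
log2 fold change of TNFα over untreated in WT cells (x axis) and S80A cells (y axis) for the 52 members in red and the 51 tested genes of the κB pathway and TNFα target list in grey, with the centre enlarged on the right. The members lie from -1.07 to 0.78 in WT cells, and many listed genes lie far up the diagonal. The rule limits each member's rise in WT cells by its S80A over WT ratio among untreated samples.

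For comparison, 24 of 51 tested genes of the κB pathway and TNFα target list were called as rising in WT cells and 29 of 51 in S80A cells. The rule keeps out any gene whose WT samples with TNFα reach the level of an untreated S80A sample. For the interaction, which asks whether the response differs between the genotypes, 0 members passed, against 0% of all genes by edgeR and 0 genes by DESeq2. An unadjusted p under 0.05 was found for 2 members and for 520 genes in all. The members were PPARGC1A (0.96 ± 0.28 on the log2 scale, adjusted p = 0.911) and IL10RA (1.16 ± 0.40, adjusted p = 0.911), both with a response higher in S80A than in WT cells. The rule favoured this direction in both. Their S80A over WT ratios were 1.56 and 1.47 untreated, under the rule's 2-fold, and 3.07 and 3.34 with TNFα.

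Replicate 1 of the S80A cells stood above the other 2 for many members. In 23 of 52 members (44.2%) replicate 1 was the highest of 3 in both the untreated and the TNFα samples, compared with 28.03% of the other genes at 1 CPM or more. In WT cells the same held for 17 members (32.7%) and 20.0% of the other genes. OSTN, a secreted peptide also called musclin, showed it clearly, with 1.96, 0.820 and 0.862 CPM untreated and 1.83, 0.896 and 0.688 CPM with TNFα. FBXL16, an F-box protein, was the opposite, with replicate 1 lowest in both treatments at 8.62 and 7.33 CPM, while the other S80A samples lay between 13.7 and 16.2 CPM.

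The 22 members of this kind with a transcript sequence had a median GC content of 51.5% in their longest GENCODE transcript, against 46.5% in the other 26. Over the other genes the values were 51.2% and 46.6%, so the difference in GC was about the same there. Without S80A untreated replicate 1 the rule picked 40 genes, all of them members. Leaving out all 4 samples of replicate number 1, a choice made after seeing the data, picked 49 genes, of which 37 were members. Its part in the members' levels was not tested.

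**Figure D4:**
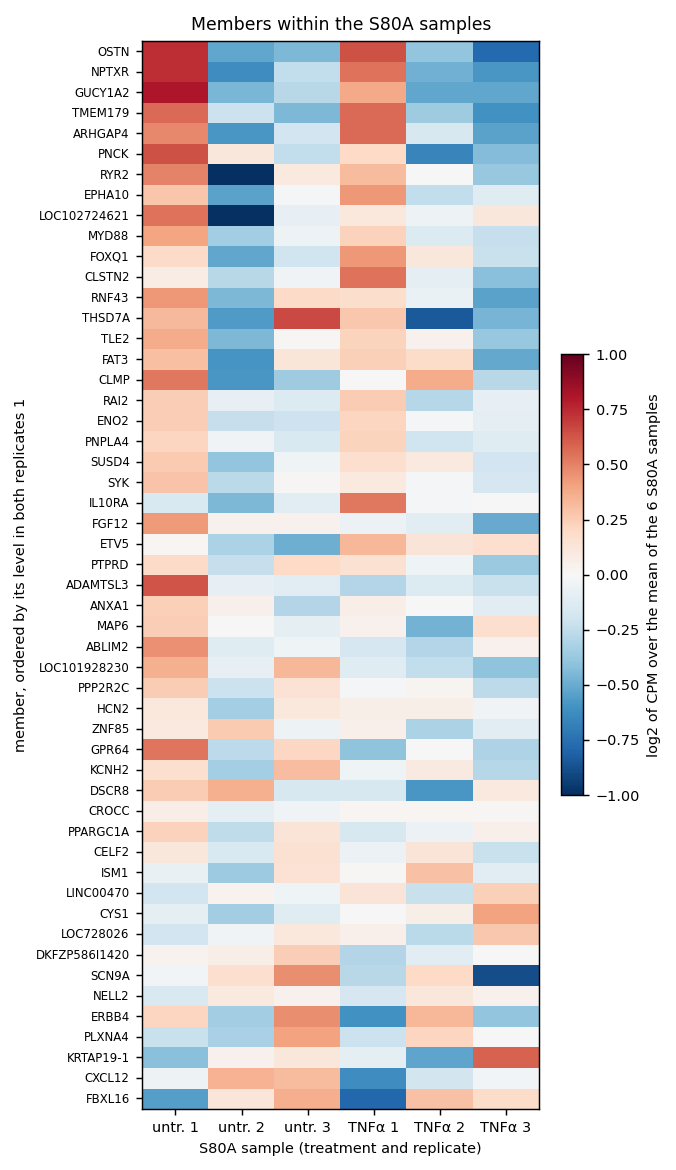
log2 of each member's CPM over its mean in the 6 S80A samples, with members in rows and samples in columns, red above and blue below the mean (colour scale cut at -1 and 1). The columns of replicate 1, untreated and with TNFα, are mostly red in the upper rows and FBXL16, at the bottom, is blue in both.

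Of the 52 members, 51 matched RefSeq, and 46 of these are protein coding, 3 are long noncoding RNA genes and 2 are pseudogenes. Long genes were frequent. The median genomic span was 62.8 kb in the members and 30.9 kb in the other genes at 1 CPM or more, and 13 members (25.5%) spanned over 300 kb against 3.76% of the others. The longest were PTPRD at 2298757 bases, a receptor tyrosine phosphatase of neurons, and ERBB4 at 1163086 bases. CELF2 spanned 874126 bases and PPARGC1A 680885 bases. FAT3, an atypical cadherin, spanned 671656 bases and CLSTN2, a synaptic calsyntenin, 642213 bases. Gene length and level were not matched between the sets, so this is a description.

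**Figure D5:**
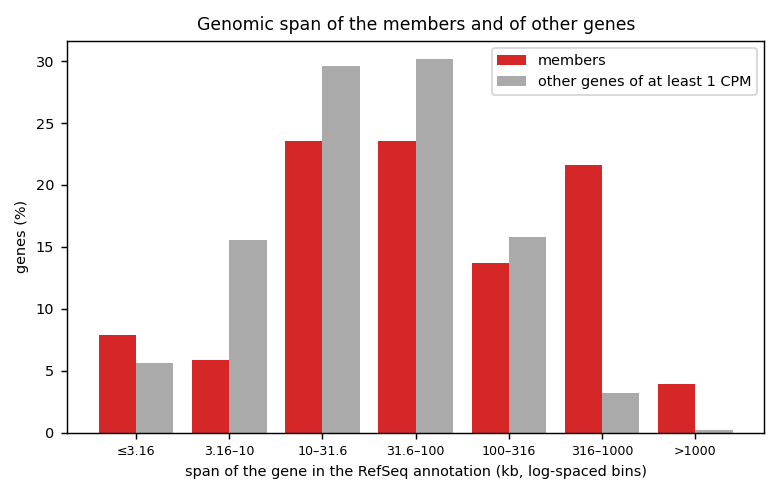
Percent of genes (y axis) by genomic span in log-spaced bins (x axis, kb), for the 51 members with a RefSeq match in red and the other genes at 1 CPM or more in grey. Members are more frequent than the other genes in both bins above 316 kb.

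Members lay on 20 chromosomes, and 2 pairs had starts within 1 Mb. OSTN (chr3:191199241-191265615) and FGF12 (chr3:192139390-192727541) lie 0.940 Mb apart by their lower coordinates. PNCK, a calcium/calmodulin-dependent kinase (chrX:153669733-153687771), and ARHGAP4 (chrX:153907378-153926264) lie 0.238 Mb apart. PNCK overlaps the expressed gene SLC6A8 on the other strand. The same stretch of the X chromosome holds ATP2B3, which had been set aside by name and was at 2.24 on the log2 scale of S80A over WT. Within 500 kb of a member lay 335 other genes at 1 CPM or more, each counted once, of which 229 (68.4%) had a ratio above 1, against 57.2% of all other genes with a position. The median of these neighbours was 0.07 on the log2 scale, against 0.03 for all other genes.

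Promoter sequences of 300 bases (250 before and 50 after the first listed start) were at hand for 36 members. Motifs were searched on both strands, where a motif and its reverse complement count as 1 kind. The κB letters (GGG, any 2 bases, TTTCC) were in 0 of 36, which allows a share of up to 9.64% (95% Wilson interval), against 2.09% of other genes at 1 CPM or more and 1.92% of all promoters. The κB consensus given in the study differs from these letters. It asks for a purine after GGG and allows A or T and then pyrimidines in place of TTT. Other sites of that consensus, and distal sites, were not searched. TATAAA was in 4 (11.1%), against 5.10% of the other genes and 11.9% of all promoters. The AP-1 letters TGANTCA were in 2 (5.56%), against 4.01% and 7.76%. The median GC content was 71.3% in the members and 65.8% in the other genes. In the 150 bases before the start, κB letters were in 0 of the 36, against 1.24% of the other genes. TATAAA was in 4 of the 36 there, against 2.73% of the other genes and 7.05% of all promoters.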

How the data were processed

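The deposited count table holds raw counts per gene symbol, which the authors made from single-end 75 bp reads of stranded poly(A) libraries with HISAT (GRCh38) and HTSeq-count. Versions and the strand setting used for counting are not given in the sources used here. The authors' 2 gene lists hold log2 fold changes, p-values and normalised signals and were not used. Columns were matched to samples by name. Of 33121 rows, 28 whose symbols had become dates were left out.

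Members and gene lists were chosen with earlier results of these data known. CPM is the count over the column total. TNFα responses and their interaction with genotype were fitted with edgeR 4.0.16 (R 4.3.3) on 14383 genes that passed filterByExpr, scaled by TMM, with quasi-likelihood tests on 4 group means and Benjamini-Hochberg adjustment over all genes at 0.05. The SE is the log2 fold change over the square root of F. The code was checked on simulated counts. Triplicates are called independently generated in the study's methods, and p-values measure the spread between these samples. No 2 replicates of a group agreed within counting error (chi-square per gene of 2.78 or more).

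Named members were the 10 of highest ratio, the 10 of highest level, those called for TNFα, up to 4 per list, neighbours within 1 Mb and those at the threshold, with others said to be chosen after their values were seen. Positions and promoters came from RefSeq on GRCh38.p14, and transcript GC and exon length from GENCODE. Alternatives were DESeq2 1.42.0, its size factors, total counts, no filter, a replicate block, single-genotype fits, leaving out samples, and other settings of the rule. Tables and plots were made in Python 3.11.15 with pandas 2.3.3 and matplotlib 3.10.9. Intervals and floors cover counting error only.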

Additional observations from a re-analysis of the deposited data

Results flagged for a closer look

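IL10RA was lower with TNFα in all WT samples and higher in all S80A samples, with no overlap of samples in either genotype, on 5 to 13 counts per WT sample and 12 to 30 per S80A sample. Neither response passed by itself (edgeR, adjusted p = 0.900 in WT and 0.622 in S80A cells). It read 0.621, 0.624 and 0.549 CPM in untreated WT cells and 0.279, 0.366 and 0.414 CPM with TNFα. In S80A cells it read 0.930, 0.757 and 0.957 CPM untreated and 1.49, 1.02 and 1.03 CPM with TNFα. The interaction was 1.16 ± 0.40 (SE) on the log2 scale and did not pass over all genes (unadjusted p = 0.0144, adjusted p = 0.911, edgeR). The S80A over WT ratio of IL10RA was 1.47 untreated and 3.34 with TNFα. It met the 2-fold rule only through the TNFα samples, so the rule favoured this direction. IL10RA was singled out of 52 members after their values were seen. How many of all genes separate in this way was not counted, so how unusual the pattern is cannot be said.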

How the results depend on the processing

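The 1 member called for TNFα in WT cells became 0 with DESeq2, without the filter on low counts, with the replicate block and with only the 6 WT samples, and ran from 0 to 1 when single samples were left out. The 2 members called on average became 1 with DESeq2, total counts, no filter and the replicate block, and ran from 0 to 2 when single samples were left out. With the replicate block, PPARGC1A in WT cells was at adjusted p = 0.0581 (edgeR). Not all same-number samples deviated together (correlations from -0.10 to 0.49, 9 of 18 pairs over 0.1), so the numbers were not taken as pairs, although all 6 pairs of replicate 1 were over 0.1 (0.12 to 0.49). By mean correlation, 6 of 12 samples were closest to their own number. In S80A cells and for the interaction, 0 members were called under all alternatives. The members' median log2 ratio was 1.26, ran from 1.17 to 1.31 when single samples were left out, and was 1.08 within replicate number 2, a split chosen after seeing the data. The rule picked 52 genes, 50 with TMM scaling, 53 with DESeq2 size factors, 20 at 5 CPM, 70 in untreated samples, 101 in TNFα samples, 40 to 64 without single samples and 81 without replicate number 2, also chosen after seeing the data. The cause was not tested. Low counts limit most members.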
